A study of Mus musculus with 13 samples.

Results

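The genes described here are 10 genes of the vessel wall that take part in the capture, adhesion and passage of leukocytes: Sele, Selp, Icam1, Icam2, Vcam1, Pecam1, Esam, Ackr1, Lrg1 and Cd34. They were taken by name from the 49315 genes counted in each midbrain RNA-Seq library, and all 10 passed the filter of 10 or more counts in 3 or more libraries, as did 19360 genes in all. The 13 libraries each came from a different male mouse aged 8 to 12 weeks on a C57BL/6J background. All mice were Ripk3 fl/fl, which means that Ripk3 was flanked by loxP sites on both alleles, and per the labels all received tamoxifen at 60 mg/kg for 5 days before treatment. Ripk3fl/fl Aldh1l1Cre+ mice (Cre+) also carried a tamoxifen-activated Cre recombinase driven by the promoter of the astrocyte gene Aldh1l1, and littermates without it (Cre-) served as controls. MPTP, a toxin that selectively kills dopaminergic neurons, was given i.p. at 20 mg/kg on 5 consecutive days, with saline as the control, and midbrains were taken from mice perfused with PBS 3 days later. Saline was given to 3 mice of each genotype, and MPTP to 3 Cre- and 4 Cre+ mice. The RNA came from homogenized whole tissue and not from sorted endothelial cells, so for every gene below, more cells of a type and more RNA per cell cannot be told apart.

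Leukocytes leave the blood in steps. Selectins on activated endothelium bind carbohydrate ligands and make passing leukocytes roll, chemokines held on the vessel wall activate the integrins of the rolling cells, and these integrins then bind endothelial receptors of the immunoglobulin superfamily, which arrest the cell and let it cross the wall. Endothelium of the healthy brain carries little selectin, and cytokines such as TNF and IL-1 are known to raise Sele, Selp, Icam1 and Vcam1. Most of this traffic takes place in venules after the capillary bed, and Ackr1 and Lrg1 are known as genes of venular endothelium.

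Library totals ranged from 11489150 to 29397278 counts, with a median of 24907639. The lowest total and the fewest detected genes (21101, against 25432 to 27186 elsewhere) were those of Cre- MPTP replicate 1, and the comparisons were repeated without it. The targeted gene Ripk3 had 4 to 11 counts in Cre- Saline, 6 to 10 in Cre+ Saline, 6 to 40 in Cre- MPTP and 4 to 19 in Cre+ MPTP libraries, so counts from whole tissue did not separate the genotypes. Neuronal, astrocyte and oligodendrocyte markers were present in every library, and the midbrain gene Slc6a3, the dopamine transporter, was at 10.8 to 77.4 CPM over all libraries. CPM are counts scaled by library total with TMM normalization, and TPM are counts scaled by the exonic length of each gene and by library total.

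At rest, the selectins were far below the other 8 genes. Per exonic length, the mean level in Cre- Saline midbrain was 62.2 ± 5.95 TPM (SD, n = 3) for Ackr1, a decoy receptor that binds chemokines without signaling. It was 21.8 ± 2.30 TPM for Esam, a receptor of endothelial tight junctions, and 15.3 ± 2.61 TPM for Pecam1, which guides leukocytes between endothelial cells. These 3 genes did not overlap each other over the 3 libraries. Next came Vcam1, a receptor for the integrin alpha-4 beta-1, at 12.7 ± 0.582 TPM and Cd34, a sialomucin of endothelium and progenitor cells, at 12.4 ± 2.21 TPM, whose ranges overlapped. Icam2 (4.50 ± 0.248 TPM), Lrg1 (3.85 ± 1.70 TPM) and Icam1 (2.74 ± 0.421 TPM) formed a lower group in which each neighbor overlapped the next. The selectins were lowest, at 0.0968 ± 0.0437 TPM for Selp and 0.0440 ± 0.0762 TPM for Sele, and they overlapped each other.

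The order changed after MPTP in Cre- mice. Ackr1 remained first in mean level (157 ± 88.8 TPM, n = 3), but Lrg1 (95.5 ± 102 TPM) and Icam1 (42.5 ± 13.3 TPM) now followed it. Sele (10.9 ± 6.54 TPM) and Selp (8.41 ± 5.70 TPM) lay above Icam2 (4.53 ± 1.04 TPM). The spread among the 3 mice was wide, and every gene overlapped its neighbor in this order. In Cre+ MPTP midbrain the order was closer to that at rest, with Ackr1 first (75.8 ± 7.32 TPM, n = 4) and without overlap with Esam (23.5 ± 0.804 TPM), and with Sele (1.85 ± 1.85 TPM) and Selp (1.04 ± 0.945 TPM) last. In Cre+ Saline midbrain, Ackr1 was again first (54.4 ± 7.55 TPM, n = 3) and Sele last (0.0319 ± 0.0553 TPM).

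**Figure D1:**
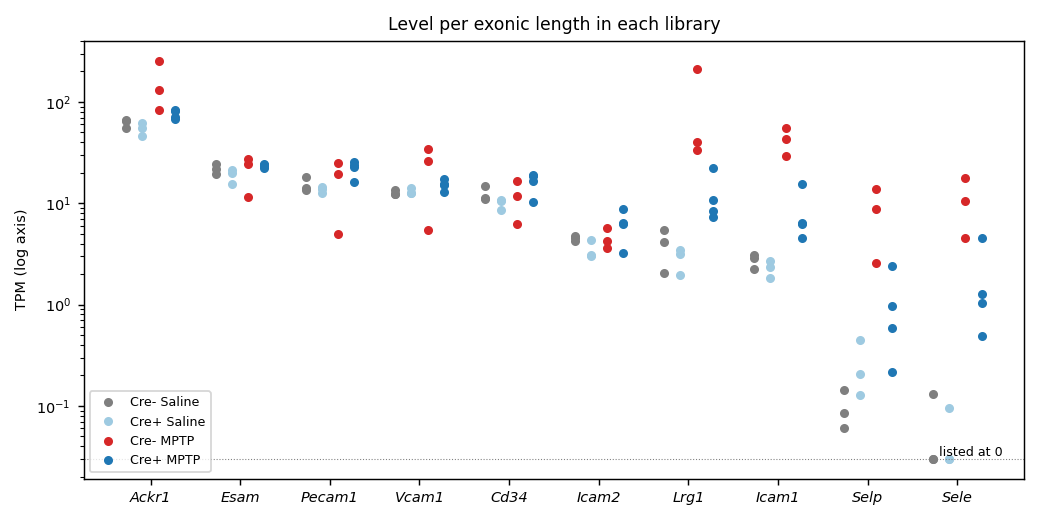
Level of each gene per exonic length (TPM, log axis), with 1 point for each of the 13 libraries, colored by group; libraries with no count are drawn at the dotted line. Genes are ordered by their mean in Cre- Saline. The points of Cre- MPTP lie highest for Selp, Icam1 and Lrg1, and for Sele its lowest point is level with the highest of Cre+ MPTP, whereas the groups overlap for Esam and Icam2, with 1 low Cre- MPTP library for Esam.

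The promoters of both selectins and of Icam1 are shown because, of the promoters searched, only these held a match to a motif searched. Being shown is thus a choice by motif match, and a link to their levels after MPTP was not tested. RefSeq promoter windows on GRCm38.p6 matched 6 of the 10 genes (Sele, Selp, Icam1, Ackr1, Lrg1 and Cd34), and the 250 bases before each RefSeq start were searched on both strands. Of the motifs searched, 3 had matches, marked by capitals: a STAT motif (TTCNNNGAA), an AP-1 motif (TGANTCA) and a TATA box (TATAAA). The windows are chr1:164047984-164048233 for Sele, chr1:164115014-164115263 for Selp and chr9:21015690-21015939 for Icam1, all on the + strand.
Sele: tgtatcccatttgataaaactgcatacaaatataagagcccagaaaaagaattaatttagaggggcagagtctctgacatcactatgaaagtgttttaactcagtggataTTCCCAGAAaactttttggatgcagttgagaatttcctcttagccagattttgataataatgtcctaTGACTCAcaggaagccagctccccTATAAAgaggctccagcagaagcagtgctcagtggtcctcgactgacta
Selp: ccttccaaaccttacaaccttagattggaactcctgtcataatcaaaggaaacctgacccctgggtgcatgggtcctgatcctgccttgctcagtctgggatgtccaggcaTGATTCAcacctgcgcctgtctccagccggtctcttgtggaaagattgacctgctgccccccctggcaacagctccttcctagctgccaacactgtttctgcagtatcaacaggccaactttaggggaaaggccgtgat
Icam1: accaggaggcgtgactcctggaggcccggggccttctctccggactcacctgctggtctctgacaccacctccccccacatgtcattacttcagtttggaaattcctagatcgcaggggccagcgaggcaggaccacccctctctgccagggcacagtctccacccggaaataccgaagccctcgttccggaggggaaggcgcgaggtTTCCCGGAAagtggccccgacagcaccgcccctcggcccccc
The STAT motif began 140 bases before the start of Sele and 42 before that of Icam1, and 7.02% of the 32851 promoter windows of the same length held it. The AP-1 motif began 73 bases before the start of Sele and 139 before that of Selp, and 6.75% of all windows held it. The TATA box lay 49 bases before the start of Sele, with 12.4% of all windows holding one. Ackr1, Lrg1 and Cd34 held none of these 3 motifs in the window. A single fixed NF-kappaB consensus pattern was also searched and had no match in the window of any of the 6 genes. Of all windows, 7.25% held a match to this pattern. Sites that depart from the pattern are not found this way, so the search cannot show that these promoters lack NF-kappaB sites.

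MPTP raised 5 of the 10 genes in Cre- mice: the selectins Sele and Selp, the integrin receptor Icam1, the glycoprotein Lrg1 and the chemokine receptor Ackr1. Each of these passed an adjusted p of 0.05 in edgeR's quasi-likelihood test, and none of the 10 passed in the lower direction. Across all genes tested, 2.23% were called higher in this comparison and 0.956% lower. The CPM of the same 5 genes did not overlap between the 3 MPTP and the 3 Saline libraries, against 7.11% of all genes tested that were higher without overlap. The median log2 fold change over the 10 genes was 1.09, and over all genes tested it was 0.03.

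E-selectin is encoded by Sele (ENSMUSG00000026582, chromosome 1, 164048234 to 164057677 of GRCm38) and appears on endothelium only after activation. Saline libraries held almost none of it: the counts were 0, 0 and 3 for Cre- and 2, 0 and 0 for Cre+ mice. In Cre- MPTP libraries it had 55, 216 and 441 counts (5.96, 8.56 and 14.6 CPM). In Cre+ MPTP libraries it had 29, 70, 9 and 24 counts (1.07, 3.92, 0.399 and 0.916 CPM). In CPM, every MPTP library exceeded every Saline library, and every Cre- MPTP library exceeded every Cre+ MPTP library. In counts (55 and 70) and in TPM (4.52 and 4.58), Cre- MPTP replicate 1 lay below Cre+ MPTP replicate 2. The library totals were 11489150 and 17713289 counts, so the raw counts are not at the same depth. The order of these 2 libraries thus depends on how counts are scaled. In Cre- mice the ratio of summed counts, scaled for depth, was 287, with a 95% counting interval of 97.7 to 1393 that is wide because the Saline libraries together held 3 counts. The fitted log2 value of edgeR, which depends on its prior count at such low levels, was 7.82 (SE 1.11, adjusted p = 0.00241). It was 10.86 without Cre- Saline replicate 3, the only library of its group with a count, and 7.30 to 8.07 without any other. Intervals of this kind cover counting error only.

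P-selectin, encoded by Selp (ENSMUSG00000026580, chromosome 1, 164115264 to 164150026), is stored in granules of endothelial cells and platelets and moved to the surface on activation. Its level was 0.119, 0.0781 and 0.183 CPM in Cre- Saline libraries and 5.09, 10.8 and 17.5 CPM in Cre- MPTP libraries. All 3 Cre- MPTP libraries were well above the Saline range, and replicate 1 was the lowest of them, as it was for Sele. In edgeR this was a log2 fold change of 6.40 (SE 0.887, adjusted p = 0.00217). Selp shares 186 and 438 of its 4413 exonic bases with the antisense genes Gm16587 and Gm16548, which did not reach the filter on counts, and without a stated strand setting reads from the 2 strands cannot be told apart there. Markers of platelets and megakaryocytes, the other source of Selp, had 0 of 4 tested genes called in Cre- mice. Their summed level was at most 13.1 CPM in Cre- Saline libraries, and it was 48.4, 10.9 and 10.2 CPM in Cre- MPTP libraries 1, 2 and 3. The part of platelets in the level of Selp was not tested. Ppbp was under the filter, and Pf4 was at 0.835 ± 0.126 CPM in Cre- Saline and 0.815 ± 0.568 CPM in Cre- MPTP (SD, n = 3).

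**Figure D2:**
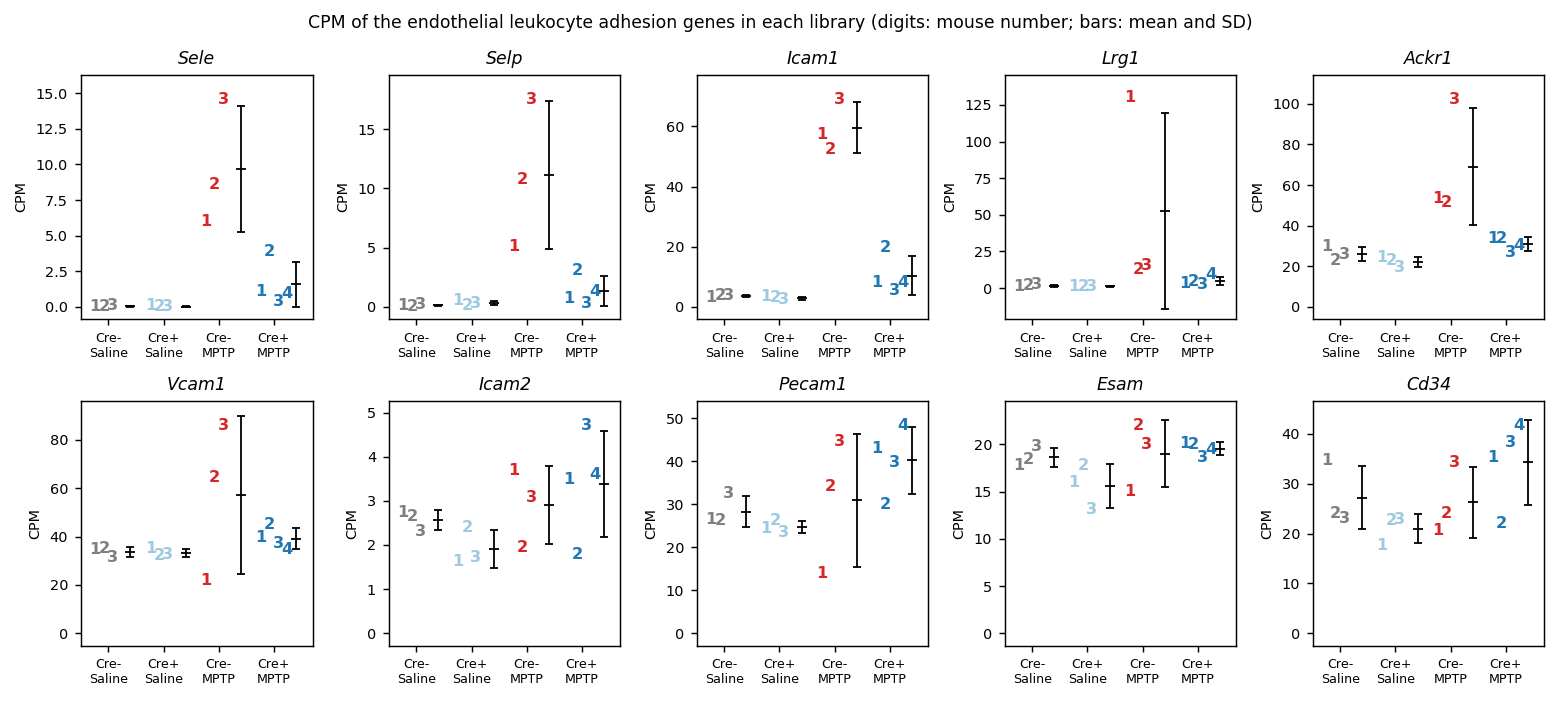
CPM of the 10 genes in each library, in 1 panel per gene with its own axis; digits are the mouse numbers within each group, and bars give the mean and SD (n = 3, or 4 for Cre+ MPTP). In the upper row, the Cre- MPTP libraries lie above all other libraries for Sele, Selp, Icam1, Lrg1 and Ackr1. In the lower row, mouse 1 of Cre- MPTP is the lowest of all 13 libraries for Vcam1 and Pecam1.

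Icam1 (ENSMUSG00000037405, chromosome 9, 21015985 to 21028817) is the main endothelial receptor for the leukocyte integrins LFA-1 and Mac-1. It was the most uniform responder. Its level was 3.13, 3.67 and 3.83 CPM in Cre- Saline libraries and 57.3, 52.3 and 68.9 CPM in Cre- MPTP libraries. The Cre- MPTP group, at 59.5 ± 8.54 CPM (SD, n = 3), was thus far above 3.55 ± 0.366 CPM, and the gap between the 2 ranges was several times the spread within either. Its log2 fold change in edgeR, 4.07 (SE 0.411, adjusted p = 0.000628), stayed between 3.94 and 4.15 with any of these 6 libraries left out. Icam1 shares 511 of its 4360 exonic bases with the antisense gene Gm47079, which did not pass the test itself (-0.16, SE 0.387, adjusted p = 0.868, edgeR).

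The other 4 receptors of the immunoglobulin superfamily did not pass the test in Cre- mice. Vcam1 (ENSMUSG00000027962, chromosome 3, 116109949 to 116129688) was at 34.8, 35.0 and 31.2 CPM in Cre- Saline and at 21.7, 64.6 and 85.9 CPM in Cre- MPTP libraries. Mouse 1 was thus below the whole Saline range and mice 2 and 3 were above it. With all mice the log2 fold change of 0.78 did not pass (SE 0.341, adjusted p = 0.320), and without Cre- MPTP replicate 1 it was 1.17 and passed (adjusted p = 0.000111, edgeR). Vcam1 shares 61 of its 8870 exonic bases with the antisense gene Gm43109, which was under the filter. Pecam1 (ENSMUSG00000020717, chromosome 11, 106654217 to 106750628) showed the same order of mice, at 14.0, 34.1 and 44.6 CPM in Cre- MPTP against 26.4, 26.2 and 32.4 CPM in Cre- Saline. Its log2 fold change was 0.14 (95% interval -0.55 to 0.82), and 0.48 without Cre- MPTP replicate 1 (adjusted p = 0.105, edgeR). Icam2 (ENSMUSG00000001029, chromosome 11, 106377656 to 106388075), a constitutive ligand of LFA-1, was at 2.56 ± 0.233 CPM in Cre- Saline and 2.90 ± 0.885 CPM in Cre- MPTP, with a log2 fold change of 0.16 (95% interval -0.58 to 0.90). Esam (ENSMUSG00000001946, chromosome 9, 37528078 to 37538319) was at 18.7 ± 1.01 and 19.0 ± 3.57 CPM, and its log2 fold change of 0.03 had an interval of -0.32 to 0.39. The intervals of Icam2 and Pecam1 leave room for changes of a size that Vcam1 showed, whereas that of Esam excludes a log2 change beyond 0.39.

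Among the remaining genes, Lrg1 (ENSMUSG00000037095, chromosome 17, 56119680 to 56121946), a secreted leucine-rich glycoprotein of venular endothelium that acts on TGF-beta signaling, rose with a large spread. It was at 0.873, 1.64 and 2.08 CPM in Cre- Saline and at 130, 12.8 and 15.4 CPM in Cre- MPTP libraries. All 3 MPTP mice lay above the Saline range, and mouse 1 was far above the other 2. With this mouse edgeR gave a log2 fold change of 5.09 (SE 0.899, adjusted p = 0.00704), and without it 3.20 (adjusted p = 0.000649). Leaving out Cre- Saline replicate 1 gave 4.81 (adjusted p = 0.0527, edgeR), which just missed the threshold.

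Ackr1 (ENSMUSG00000037872, chromosome 1, 173331886 to 173333750) was at 29.8, 23.0 and 25.8 CPM in Cre- Saline and at 53.3, 51.4 and 102 CPM in Cre- MPTP libraries. Mice 1 and 2 of the MPTP group were close together, mouse 3 was higher, and none overlapped the Saline range. The rise was 1.40 on the log2 scale (SE 0.242, adjusted p = 0.00631, edgeR), 1.00 without Cre- MPTP replicate 3 (adjusted p = 0.00840, edgeR) and 1.31 without Cre- Saline replicate 2 (adjusted p = 0.0532, edgeR). Ackr1 shares 361 of its 1405 exonic bases with Cadm3, a neuronal adhesion gene on the same strand, and how reads in shared bases were assigned is not given in the sources used here. The log2 fold change of Cadm3 was -0.18 (SE 0.130, adjusted p = 0.513, edgeR). Cd34 (ENSMUSG00000016494, chromosome 1, 194938819 to 194961279) was at 27.2 ± 6.39 CPM in Cre- Saline and 26.3 ± 7.14 CPM in Cre- MPTP, with a log2 fold change of -0.05 (95% interval -0.61 to 0.52). It shares 148 of its 7290 exonic bases with the antisense gene Gm16897.

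In Cre+ mice, the fitted log2 fold changes of all 10 genes after MPTP were above 0, but none passed the test. The same sign was seen in 19 of 20 pan-endothelial markers (median 0.35) and 8 of 8 venous markers (median 0.41), 4 of which are among the 10 genes. The part of a general shift of endothelial RNA in these values was not tested. No gene of the 19360 tested passed it in this comparison (0%), so this count says nothing particular about the 10 genes. At an unadjusted p under 0.05 in edgeR, 8 of the 10 genes were higher, against 2.7% of all genes tested. DESeq2 over all libraries called 2 of them (Sele and Icam1), DESeq2 on these 2 groups called 6, limma voom called 5, and edgeR on these 2 groups called 0. Calls over all genes ranged from 0 to 320 over the 9 settings that include these, so the background differed between them. In CPM, 6 of the 10 genes (Sele, Icam1, Ackr1, Pecam1, Lrg1 and Esam) were higher in the 4 MPTP than in the 3 Saline libraries without overlap, against 5.06% of all genes tested. The median log2 fold change was 0.77 over the 10 genes and 0.00 over all genes tested (0.00337).

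Sele and Icam1 had the smallest p-values of the 10 genes in this comparison. The summed Sele counts of 132 and 2 gave a depth-scaled ratio of 53.7, with a 95% counting interval of 14.6 to 448, and an adjusted p of 0.248 (edgeR). For Icam1, the Cre+ Saline libraries were at 3.31, 2.97 and 2.36 CPM and the Cre+ MPTP libraries at 8.02, 19.8, 5.50 and 8.17 CPM. All 4 MPTP mice lay above the Saline range, and mouse 2 was well above the other 3. The rise of 1.84 on the log2 scale did not pass (SE 0.369, adjusted p = 0.247, edgeR). Selp was at 0.552, 0.163 and 0.267 CPM in Cre+ Saline and at 0.739, 3.08, 0.266 and 1.30 CPM in Cre+ MPTP libraries, where mouse 3 fell within the Saline range, and its rise of 1.99 on the log2 scale had an SE of 0.745. Lrg1 was at 0.749, 1.34 and 1.26 CPM in Cre+ Saline and at 3.29, 4.25, 2.75 and 9.08 CPM in Cre+ MPTP libraries, with a log2 fold change of 2.12 (SE 0.806).

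The remaining genes had smaller differences in Cre+ mice. Pecam1 was at 24.5, 26.2 and 23.4 CPM in Cre+ Saline and at 42.9, 29.9, 39.8 and 48.3 CPM in Cre+ MPTP libraries, without overlap. Its log2 fold change was 0.70 (95% interval 0.05 to 1.35), beside 0.14 (-0.55 to 0.82) in Cre- mice. Cd34 was at 0.71 (0.17 to 1.24) in Cre+ and -0.05 (-0.61 to 0.52) in Cre- mice, and Icam2 at 0.83 (0.13 to 1.53) and 0.16 (-0.58 to 0.90), in log2 fold change. The interaction of genotype and treatment did not pass for Pecam1 (0.57, adjusted p = 0.798), Cd34 (0.75, adjusted p = 0.795) or Icam2 (0.67, adjusted p = 0.795) in edgeR. Esam was at 0.32 (-0.01 to 0.66), Ackr1 at 0.49 (0.00 to 0.98) and Vcam1 at 0.23 (-0.46 to 0.92) in Cre+ mice.

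**Figure D3:**
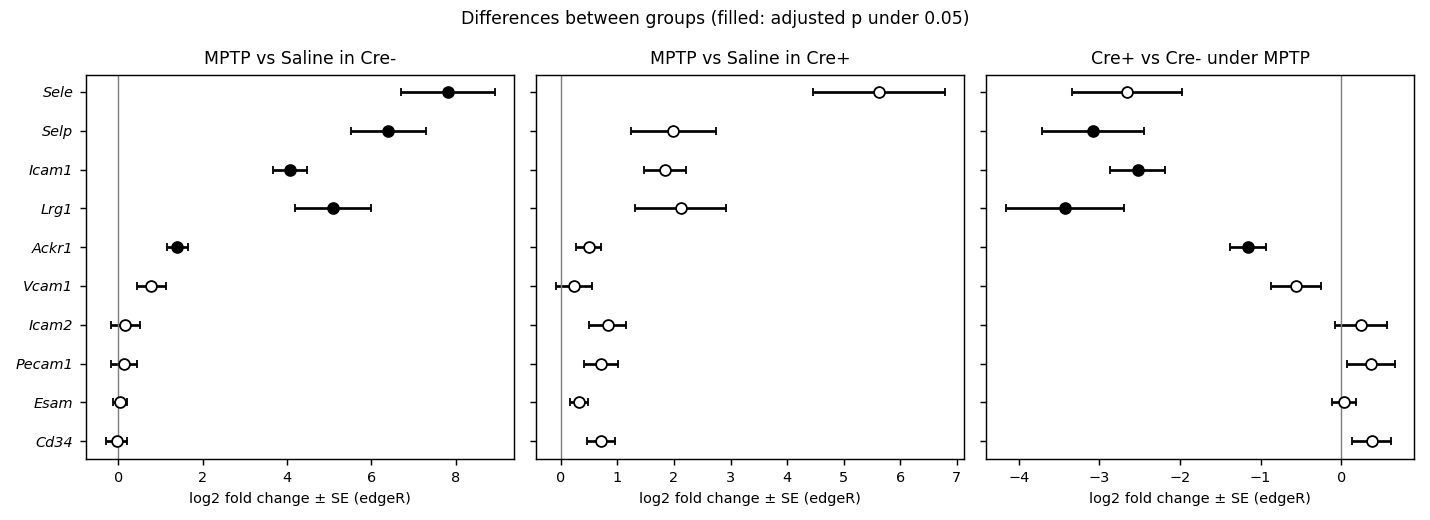
Log2 fold changes of the 10 genes with their SE, for MPTP against Saline in Cre- and in Cre+ mice and for Cre+ against Cre- under MPTP; filled points passed an adjusted p of 0.05 in edgeR. The panels have their own axes. Filled points are Sele, Selp, Icam1, Lrg1 and Ackr1 on the left, none in the middle, and Selp, Icam1, Lrg1 and Ackr1, all below 0, on the right.

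The comparison of genotypes under MPTP asks whether loss of astrocytic Ripk3 changed these genes in the treated midbrain. Selp, Icam1, Ackr1 and Lrg1 were lower in Cre+ MPTP than in Cre- MPTP mice, with 4 of the 10 genes called lower and 0 higher in edgeR, against 1.03% and 0.517% of all genes tested. Sele was also lower without overlap in CPM but missed the threshold. In all, 5 of the 10 genes were lower without overlap in CPM, against 5.07% of all genes tested. This comparison uses the same 3 Cre- MPTP libraries as that of MPTP with Saline in Cre- mice, so the 2 sets of values are not independent.

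Icam1 was at 59.5 ± 8.54 CPM (SD, n = 3) in Cre- MPTP and at 10.4 ± 6.41 CPM (SD, n = 4) in Cre+ MPTP. The highest Cre+ mouse, at 19.8 CPM, remained far below the lowest Cre- mouse, at 52.3 CPM. Icam1 was lower in Cre+ by a log2 fold change of -2.53 (SE 0.344, adjusted p = 0.00720, edgeR). Leaving out any 1 of the 7 mice gave values between -3.04 and -2.31, all of which passed. The call was lost with edgeR on the 2 groups (adjusted p = 0.200) and with the mouse number as a block (adjusted p = 0.0797), and kept in 7 others. Selp was at 11.1 ± 6.21 and 1.34 ± 1.23 CPM, with a log2 fold change of -3.08 (SE 0.634, adjusted p = 0.0345, edgeR). The lowest Cre- MPTP mouse (5.09 CPM) was above the highest Cre+ MPTP mouse (3.08 CPM), although the call was lost without Cre- MPTP replicate 3 (-2.59, adjusted p = 0.0544, edgeR). Sele was at 9.69 ± 4.41 and 1.58 ± 1.59 CPM, with a log2 fold change of -2.66 (SE 0.683, adjusted p = 0.0896, edgeR). It passed without Cre- MPTP replicate 1 (-2.92, adjusted p = 0.0219), Cre- MPTP replicate 2 (-2.76, adjusted p = 0.0443) or Cre+ MPTP replicate 2 (-3.60, adjusted p = 0.0107) in edgeR, the last being the mouse with the highest Sele of its group. Of 9 further settings it passed in 5, with adjusted p from 2.53e-05 to 0.361 over all 9.

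Ackr1 was at 68.9 ± 28.7 CPM in Cre- MPTP and at 33.5, 33.6, 26.8 and 30.1 CPM in Cre+ MPTP libraries, whose highest value was below the lowest Cre- value of 51.4 CPM. In edgeR the difference was -1.16 on the log2 scale (SE 0.221, adjusted p = 0.0255), or -0.75 if Cre- MPTP replicate 3 was left out (adjusted p = 0.0374). Lrg1 was lower by a log2 fold change of -3.43 (SE 0.735, adjusted p = 0.0399, edgeR). Without Cre- MPTP replicate 1, the mouse with 130 CPM, the value was -1.54 and no longer passed (adjusted p = 0.0578, edgeR), although the 4 Cre+ mice, up to 9.08 CPM, remained below the other Cre- mice, at 12.8 and 15.4 CPM. Leaving out any 1 of Cre+ MPTP replicates 1, 3 and 4 left Icam1 as the only gene called of the 10, with Ackr1 at an edgeR adjusted p of 0.0810, 0.0952 and 0.0821. Without Cre+ MPTP replicate 2, Lrg1 missed the threshold (-3.35, adjusted p = 0.0899, edgeR) while Sele passed it.

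For the genes that rose little or not at all with MPTP, the genotypes did not differ by the test. The log2 fold change between Cre+ and Cre- MPTP was -0.56 for Vcam1 (95% interval -1.25 to 0.12), 0.25 for Icam2 (-0.45 to 0.94), 0.37 for Pecam1 (-0.27 to 1.02), 0.03 for Esam (-0.30 to 0.37) and 0.38 for Cd34 (-0.15 to 0.91). Vcam1 in Cre+ MPTP mice was at 39.5, 44.8, 37.3 and 34.6 CPM, a narrow range that mouse 1 of Cre- MPTP (21.7 CPM) lay below and mice 2 and 3 lay above. Without that mouse, Vcam1 was lower in Cre+ by -0.95 and passed (adjusted p = 0.000870, edgeR).

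The difference between genotypes in the MPTP effect itself was tested as an interaction, and none of the 10 genes passed in edgeR, where 0.0103% of all genes did. At an unadjusted p under 0.05, 4 of the 10 (Selp, Icam1, Ackr1 and Lrg1) had a smaller rise in Cre+ mice, against 3.22% of all genes tested in that direction. The interaction was -2.23 for Icam1 (SE 0.513, adjusted p = 0.201) and -4.41 for Selp (SE 1.15, adjusted p = 0.269) on the log2 scale in edgeR. DESeq2 over all libraries called these 2 genes (adjusted p = 0.00610 and 0.00830), and limma voom called 4 (Selp, Icam1, Vcam1 and Ackr1). Calls over all genes ranged from 0 to 689 over the 7 settings that include these. For Sele no interaction is given, because both Saline groups were at or under 3 counts in every library.

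**Figure D4:**
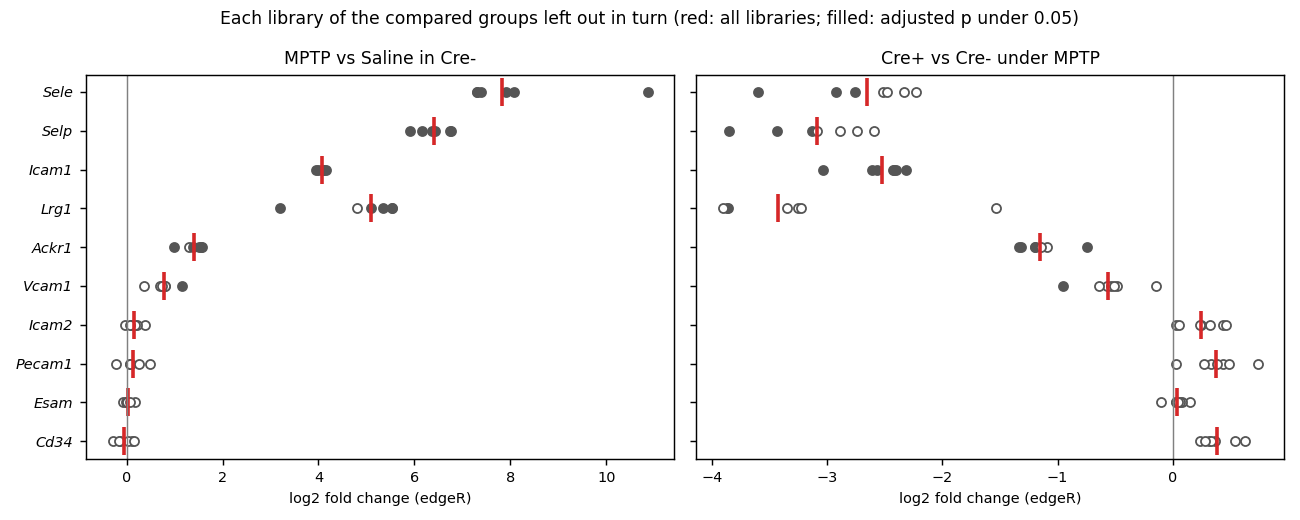
Log2 fold changes of the 10 genes with each library of the compared groups left out in turn (points) and with all libraries (red lines), for MPTP against Saline in Cre- mice and for Cre+ against Cre- under MPTP; filled points passed an adjusted p of 0.05 in edgeR. Icam1 points lie closely around the red line on the left and are all filled on the right. Single points lie far from the line for Sele on the left (10.86) and for Lrg1 on the left (3.20) and on the right (-1.54).

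Without MPTP, the genotypes did not differ by the test. The fitted log2 fold changes of 9 of the 10 genes were below 0 in Cre+ Saline (median -0.28), Sele with at most 3 counts among them. Those of 15 of 20 pan-endothelial markers were also below 0 (median -0.16), and the median over all genes tested was -0.01. The MPTP differences in Cre+ mice given above are measured from this Cre+ Saline level. None of the 10 genes was called between Cre+ Saline and Cre- Saline by edgeR, DESeq2 or limma voom, and none had an unadjusted p under 0.05 in edgeR, where 0% of all genes tested passed after adjustment and 0.909% without it. Icam1 was at 3.55 ± 0.366 CPM in Cre- Saline and 2.88 ± 0.482 CPM in Cre+ Saline (SD, n = 3), a log2 fold change of -0.30 (95% interval -1.13 to 0.53). Ackr1 was at 26.2 ± 3.40 and 22.0 ± 2.61 CPM (-0.25, -0.77 to 0.27), and Vcam1 at 33.6 ± 2.13 and 33.3 ± 1.66 CPM (-0.01, -0.75 to 0.72). Esam and Cd34 were lower in Cre+ Saline without overlap, 2 of the 10 genes against 5.71% of all genes tested, with log2 fold changes of -0.26 (-0.61 to 0.10) and -0.37 (-0.94 to 0.19). Selp, at 2 to 14 counts per library in these groups, had an interval of -0.76 to 3.41, so a difference of several fold was not detectable at this depth.

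To set the 10 genes against the amount of endothelial RNA, each was also divided by the summed CPM of 20 pan-endothelial markers in the same library. This sum was 676 to 783 CPM in Cre- Saline, 638 to 721 CPM in Cre+ Saline, 715 to 884 CPM in Cre+ MPTP, and 1171, 728 and 780 CPM in Cre- MPTP libraries 1, 2 and 3. The high value of library 1 included 298 CPM of the tight junction gene Cldn5. Per 1000 CPM of these markers, Icam1 was at 4.63 to 5.22 in Cre- Saline, 49.0 to 88.4 in Cre- MPTP and 6.68 to 27.7 in Cre+ MPTP. Selp was at 4.35 to 22.4 in Cre- MPTP and 0.323 to 4.30 in Cre+ MPTP, still without overlap. For Sele (5.09 to 18.7 and 0.485 to 5.48) and Ackr1 (45.5 to 131 and 32.5 to 46.9) the 2 MPTP groups then overlapped. In both genes the overlap came from Cre- MPTP library 1 alone, the library with the highest marker sum. The Cre- MPTP medians were 11.8 for Sele and 70.7 for Ackr1.

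In the 2 comparisons with Cre- MPTP mice, pan-endothelial markers moved in both directions. In Cre- mice with MPTP, 1 of 20 was called higher (Ly6a, log2 fold change 1.63) and 2 lower, the angiopoietin receptor Tek (-1.81) and the phosphatase Ptprb (-1.88), with a median of 0.50. Cdh5, the adherens junction cadherin, had 0.68 (adjusted p = 0.249, edgeR), and Cldn5 had 0.94 (adjusted p = 0.397, edgeR). Between genotypes under MPTP, Tek (1.88), Ptprb (1.85) and Kdr (1.28), the VEGF receptor, were called higher in Cre+ and 0 of 20 lower. Without Cre- MPTP replicate 1 the counts were 4 higher and 5 lower in Cre- mice, where the median turned to -0.20, and 5 higher and 0 lower between genotypes. Calls over all genes also changed with single libraries left out, from 616 to between 311 and 1812 in Cre- mice. Between genotypes under MPTP they went from 299 to between 41 and 1826. The share over all genes without this replicate is not given here, so these and the later list counts without it stand without a background. Of 8 venous markers, 3 were called higher and 1 lower in Cre- mice (4 and 1 without Cre- MPTP replicate 1), and 4 are among the 10 genes described here (Ackr1, Vcam1, Lrg1 and Icam1). Another of them, the amino acid transporter Slc38a5, fell in Cre- mice by 2.33 on the log2 scale (adjusted p = 0.00290, edgeR), opposite to the venous markers Icam1, Ackr1 and Lrg1. The venous transcription factor Nr2f2 was at 0.43 (adjusted p = 0.450, edgeR). Of 7 capillary, 8 arterial and 9 pericyte and smooth muscle markers, 1, 1 and 0 were called higher and 0, 2 and 1 lower in Cre- mice. Of the pericyte and smooth muscle markers, 8 of 9 had a negative log2 fold change (median -0.93), and their summed level was 307 to 349 CPM in Cre- Saline, 115 to 241 CPM in Cre- MPTP and 261 to 366 CPM in Cre+ MPTP libraries. Microglia markers, of which 3 of 8 were called lower in Cre- mice (4 without Cre- MPTP replicate 1), summed to 249 to 283 CPM in Cre- Saline and 171 to 232 CPM in Cre- MPTP. Oligodendrocyte markers, 2 of 6 called lower (4 without that library), summed to 10871 to 14460 and 7307 to 9823 CPM. These pericyte, microglia and oligodendrocyte sums thus fell in Cre- MPTP, where adhesion genes rose. The oligodendrocyte sum was also lower in Cre+ MPTP (9110.5 to 12298.6 CPM) than in Cre+ Saline (12977.2 to 14678.5 CPM). The part of these cell types in the results was not tested.

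Genes that leukocytes use to bind these receptors were also examined. Of 14 tested leukocyte ligand genes, 4 rose and 0 fell after MPTP in Cre- mice by the test, with a median log2 fold change of 0.75. They were Itgam (1.36, adjusted p = 0.00829), Itgb2 (1.60, adjusted p = 0.0112) and Itgad (3.62, adjusted p = 0.0175), which encode subunits of the beta-2 integrins that bind Icam1, and Fermt3 (1.59, adjusted p = 0.0200), which activates integrins (edgeR). Selplg, the P-selectin ligand of leukocytes, was at 22.9 ± 2.74 CPM in Cre- Saline and 12.7 ± 5.36 CPM in Cre- MPTP (SD, n = 3), lower without overlap but not past the test (-0.86, adjusted p = 0.176, edgeR). Between genotypes under MPTP, 0 of the 14 were called in either direction in edgeR. Without Cre- MPTP replicate 1, 6 were higher and 1 lower in Cre- mice, and 1 higher and 1 lower between genotypes. Microglia, which carry Itgam and Itgb2, are in the same tissue, and the part of each cell type in these values was not tested.

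Neutrophil markers also rose with MPTP in Cre- mice. In Cre- mice, 5 of 7 tested neutrophil markers were called higher with MPTP and 0 lower, among them the calprotectin genes S100a8 (log2 fold change 5.92, adjusted p = 0.00295) and S100a9 (5.38, adjusted p = 0.0158) in edgeR. Their summed level was 7.15 to 8.80 CPM in Cre- Saline, 6.63 to 11.6 CPM in Cre+ Saline and 9.39 to 13.5 CPM in Cre+ MPTP libraries, and 34.0, 19.6 and 85.5 CPM in Cre- MPTP libraries 1, 2 and 3. Library 3 was thus highest for these markers as for Sele, Selp, Icam1 and Ackr1. The lowest was library 2 for these markers but library 1 for Sele and Selp. With MPTP in Cre+ mice, 4 of the 7 markers had a log2 fold change above 0 and 3 below 0, whereas all 10 adhesion genes were above 0. Between genotypes, 4 of the 7 were called lower in Cre+ MPTP, and 3 of 6 tested without Cre- MPTP replicate 1. The defining marker Ly6g had at most 3 counts in any library and, like Cxcr2, Camp and Ltf, was under the filter. Of 7 tested monocyte and macrophage markers, 1 was higher (Ly6c2, 2.66) and 1 lower (Mrc1, -1.34) in Cre- mice, and their summed level was 14.4 to 15.7 CPM in Cre- Saline and 27.7 CPM at most in Cre- MPTP, where libraries 1 and 2 lay under the Saline range. The part of these cells in the values of the 10 genes was not tested.

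A further list held cytokines known to induce endothelial adhesion receptors, with their receptors and signaling genes, inhibitors included. Of 17 tested, 8 were called higher and 0 lower in Cre- mice, with a median log2 fold change of 0.96. The 3 with the smallest p were the TNF receptor Tnfrsf1a (2.13, adjusted p = 0.00245), the IL-6 receptor Il6ra (1.30, adjusted p = 0.00257) and the NF-kappaB inhibitor Tnfaip3 (1.92, adjusted p = 0.00704), each by edgeR. Tnf itself was called higher (adjusted p = 0.0351, edgeR) at a low level, from at most 1 count in a Cre- Saline library to 0.564 ± 0.395 CPM in Cre- MPTP (SD, n = 3), while Il1a was at 1.42 (adjusted p = 0.333, edgeR), and Il1b, Il6, Ifng and Lta were under the filter. Between genotypes under MPTP, 5 of the 17 were called lower and 0 higher, including Tnfrsf1a (-1.87, adjusted p = 0.00907), Nfkbia (-2.41, adjusted p = 0.0154) and Tnfaip3 (-1.63, adjusted p = 0.0236) in edgeR. Without Cre- MPTP replicate 1, 9 were higher in Cre- mice and 6 lower between genotypes.

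Chemokines that act at the vessel wall had calls in both comparisons. With MPTP in Cre- mice, 7 of 9 tested were called higher, among them the neutrophil attractant Cxcl1 (log2 fold change 8.64, adjusted p = 0.00439), and 1 was lower, Cxcl12 (-1.34, adjusted p = 0.00154), in edgeR. The eosinophil attractant Ccl11 was also called (adjusted p = 0.00412, edgeR), from at most 1 count in a Cre- Saline library to 0.978 ± 0.631 CPM in Cre- MPTP (SD, n = 3). Cxcl12 is made by resting endothelium and holds leukocytes at the vessel. Between genotypes, Ccl5 (-4.44) and Cxcl1 (-4.21) were called lower in Cre+ MPTP and Cxcl12 (0.89) higher, and without Cre- MPTP replicate 1 there were 5 lower and 1 higher. In Cre- mice 8 were then higher and 1 lower. Cxcl2 had no count in Cre- Saline libraries and 6.32 ± 0.903 CPM in Cre- MPTP (SD, n = 3), with an edgeR adjusted p of 0.0592.

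Enzymes that build selectin ligands and other adhesion genes of endothelium had fewer calls. Of 11 tested selectin ligand enzymes, 2 rose after MPTP in Cre- mice, B3gnt3 (3.20, adjusted p = 0.00482) and B4galt1 (1.55, adjusted p = 0.0257), and B3gnt3 was the only one called between genotypes, lower in Cre+ (-2.16, adjusted p = 0.0381), in edgeR. The fucosyltransferases Fut4 (0.57, adjusted p = 0.442) and Fut7 (-0.61, adjusted p = 0.623) did not pass in edgeR. Without Cre- MPTP replicate 1, 4 enzymes were higher and 1 lower in Cre- mice and 2 were lower between genotypes. Of 19 other adhesion and junction genes, Msn was higher (1.33, adjusted p = 0.0351) and Mcam lower (-1.23, adjusted p = 0.00386) in Cre- mice, and Mcam, an adhesion molecule of endothelium and pericytes, was higher in Cre+ than in Cre- MPTP mice (0.94, adjusted p = 0.0278), in edgeR. The junction genes F11r (0.14, adjusted p = 0.831) and Jam2 (-0.47, adjusted p = 0.198) did not pass in Cre- mice. Without Cre- MPTP replicate 1, 3 of the 19 were higher and 1 lower in Cre- mice, and 1 higher and 1 lower between genotypes.

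**Figure D5:**
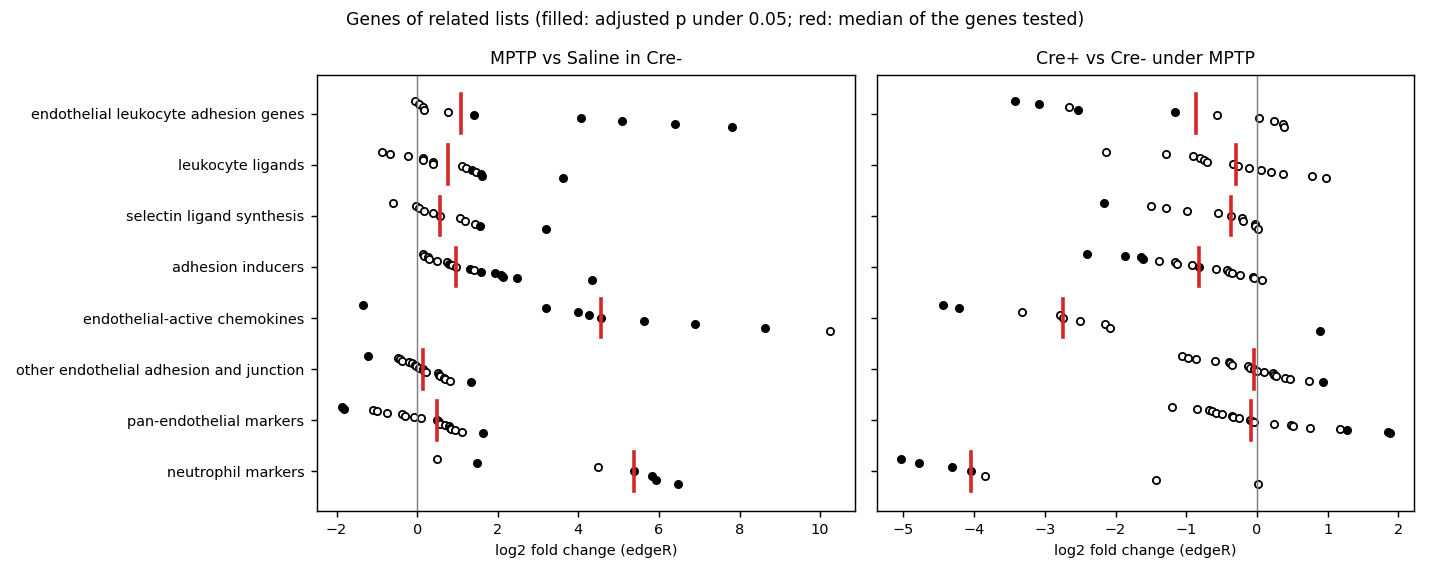
Log2 fold changes of the tested genes of 8 lists, for MPTP against Saline in Cre- mice and for Cre+ against Cre- under MPTP; filled points passed an adjusted p of 0.05 in edgeR, and red lines mark the median of each list. Chemokines, neutrophil markers and the adhesion genes reach the highest values on the left and the lowest on the right, while other adhesion genes and pan-endothelial markers lie around 0. The highest open point among the chemokines is Cxcl2, which had no count in Cre- Saline libraries.

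Finally, for each of the 10 genes the 2 genes with the most similar profile over the 13 libraries were found, as the smallest root mean square (RMS) difference of standardized log2 CPM. This is a description over libraries that share groups and depth, and it carries no test. Sele was closest to Ms4a6d (0.176) and Lcn2 (0.191), Selp to Msr1 (0.188) and Cp (0.195), and Icam1 to Gpr84 (0.205) and Msr1 (0.222). Icam1 was at rank 5 among all genes for Sele, and Sele at rank 3 for Icam1, at an RMS difference of 0.236. Lrg1 was closest to Tinagl1 (0.192) and Parp3 (0.230), and the nearest of the other 9 genes, Icam1, ranked only 191 for it. Ackr1 was closest to Apod (0.295) and Mlph (0.307), with Icam1 at rank 11. Vcam1 had Ddc (0.208) and Cab39l (0.240) as its nearest genes, and the nearest of the other 9 genes, Pecam1, was at rank 1210. The profiles of the constitutive genes had no match as close: the nearest gene lay at 0.315 for Pecam1 (ENSMUSG00000111187, followed by Trim34a at 0.333), 0.382 for Cd34 (Arhgef15, followed by Ly6e at 0.422), 0.446 for Esam (Hivep3, followed by Kbtbd8 at 0.467) and 0.494 for Icam2 (Uhrf1, followed by Pkn3 at 0.525). With a prior count of 0.5 in place of 2, Ms4a6d and Lcn2 changed places for Sele, Icam1 fell to rank 17 for Sele, the nearest of the 10 genes to Icam1 became Selp at rank 46, Plin4 replaced Cp for Selp, and Trim34a and Gm12359 were nearest to Pecam1.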

How the data were processed

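Per the labels and the study's methods, total RNA from the midbrain of 13 mice was made into TruSeq Stranded Total RNA libraries. Per the submitters' processing notes, read trimming used Trimmomatic 0.36, alignment to GRCm38 used STAR 2.5.2b, and uniquely aligned reads were assigned to genes by featureCounts of Subread 1.5.2. The authors deposited the resulting counts per gene, not normalized, in 1 file per mouse. The strand setting and the assignment of reads in shared bases are not given in the sources used here.

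Counts were tested with edgeR 4.0.16 in R 4.3.3: TMM normalization, a filter of 10 or more counts in 3 or more libraries (19360 genes), 1 term per group over all 13 libraries, the quasi-likelihood test, and Benjamini-Hochberg adjustment over all genes tested, with calls at an adjusted p under 0.05. The SE is the absolute log2 fold change divided by the square root of F, and 95% intervals use the 9 residual and the prior degrees of freedom. No fold is given where both groups had at most 3 counts in every library. TPM used the exonic lengths in the files, and log2 CPM a prior count of 2. Symbols were found for 48970 of the 49315 genes. The fits were tested on simulated data. Promoters came from RefSeq (GRCm38.p6), 250 bases before the start; Icam2, Vcam1, Pecam1 and Esam had no entry.

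The 10 genes and all lists were chosen with earlier results of these data known. From each list the text names up to 3 called genes with the smallest p and its first 2 genes, and for each of the 10 genes its 2 nearest genes; Fermt3, Ly6g and other genes given beside a count were named after their values were seen. As alternatives, DESeq2 1.42.0 (all libraries, or 2 groups), voom of limma 3.58.1 with quality weights for samples, edgeR restricted to 2 groups, other filters, DESeq2 size factors, a replicate block, each library left out in turn, and the pair of Cre- MPTP replicate 1 and Cre+ MPTP replicate 4 left out were run. List counts without Cre- MPTP replicate 1 were added after the data were seen. Mice of 1 group are separate animals. The raw reads were not used here.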

Additional observations from a re-analysis of the deposited data

How the results depend on the processing

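Over the alternatives, 772 log2 fold changes of the 10 genes were recomputed: 690 kept their direction and side of the threshold, 37 newly passed it, 24 no longer did and 21 turned sign, the last all for genes that passed in neither setting. The number of the 10 genes called higher with MPTP in Cre- mice was 5, 4 to 6 with single libraries left out and 3 to 7 over 9 other settings, lowest (3) with edgeR on the 2 groups and highest with limma voom. The number called lower in Cre+ against Cre- MPTP mice was 4. It was 1 to 5 with single libraries left out and 0 to 6 over 9 other settings, with 0 for edgeR on the 2 groups, where 0 of all genes passed, and 6 for limma voom. The number called higher with MPTP in Cre+ mice was 0 in edgeR, 2 with DESeq2 over all libraries, 5 with limma voom and 6 with DESeq2 when restricted to 2 groups. For the interaction, 0 were called lower in edgeR, 2 with DESeq2, 4 with limma voom, 1 without the pair of Cre- MPTP replicate 1 and Cre+ MPTP replicate 4, and 0 to 1 with single libraries left out. The causes were not tested, except that the fits on 2 groups hold fewer samples. DESeq2 on the 2 groups gave no adjusted p for Lrg1.

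Mice with the same number did not deviate together (correlations of -0.18 to 0.18), so the numbers do not pair them. With the number as a replicate block, 0 of the 10 genes were called lower in Cre+ MPTP (edgeR adjusted p 0.0797 for Icam1, 0.150 for Ackr1 and Lrg1, 0.166 for Selp), and all-gene calls there fell from 299 to 0.

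Sign changes were as follows. In Cre- mice, MPTP against Saline gave 0.28 for Cd34 with limma voom, and 0.12 for Cd34 and -0.0125 for Icam2 with the pair of libraries left out; with single libraries left out, Cd34 ranged from -0.29 to 0.16, Icam2 from -0.0247 to 0.380, Esam from -0.0839 to 0.17 and Pecam1 from -0.22 to 0.48. Between genotypes under MPTP, Esam was at -0.000904 with DESeq2 over all libraries, -0.0773 with limma voom, -0.00156 with DESeq2 restricted to 2 groups and -0.10 with the pair left out, and from -0.11 to 0.15 with single libraries left out; Pecam1 was at -0.0717 with the pair left out. Between genotypes in Saline, Vcam1 ranged from -0.0601 to 0.0135 with single libraries left out. All genes called ranged from 110 to 2624 (616) with MPTP in Cre- mice, 0 to 1224 (299) between genotypes under MPTP, 0 to 320 (0) with MPTP in Cre+ mice, 0 to 19 (0) between genotypes in Saline and 0 to 689 (2) for the interaction over the settings other than single libraries left out. With those left out the counts were 311 to 1812, 41 to 1826, 0 to 5, 0 to 0 and 0 to 199. Depth limits Sele and Selp in Saline libraries, where they had at most 14 counts.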
